A study of Mus musculus with 40 samples.

Results

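The genes of the cytoplasmic ribosomal proteins were followed through mouse oocyte maturation and the first cleavage, with and without the RNA- and DNA-binding protein TDP-43. They were taken from the gene table by symbol: every Rps and Rpl name made of a number and at most one trailing a, x or l, together with Rpsa, Rplp0, Rplp1 and Rplp2. This gave 81 of 24056 genes, of which 32 encode proteins of the 40S subunit, 46 proteins of the 60S subunit and 3 the proteins of the 60S stalk. Of the 81 genes, 5 are paralogs of another member (Rpl3l, Rpl10l, Rpl39l, Rps4l and Rps27l). An annotated mm9 position was found for 79 of them, spread over 19 chromosomes.

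Each RNA-seq library was made by Smart-seq2 from a pool of 20 oocytes or embryos, and each of the 12 groups had 2 libraries. Tdp43 oKO libraries came from females of the genotype Tdp43 flox/flox;Zp3-Cre. Their Cre is driven by the oocyte-specific Zp3 promoter and removes exon 3 of Tdp43 in growing oocytes, while control libraries came from Tdp43 flox/flox females without Cre. The females were 7 to 8 weeks old on a mixed C57BL/6J and ICR background, and embryos were sired by normal ICR males, so only the maternal allele was deleted in them. The stages were full-grown oocytes (FGO, 48 h after PMSG), MII oocytes (13 h after HCG), late 1-cell embryos (1C, 30 h), early 2-cell embryos (E2C, 36 h) and late 2-cell embryos (L2C, 48 h). In a separate experiment, 1-cell embryos were injected with mRNA for mCherry-Trim21 and an antibody against TDP-43 (Trim-away KD) or with the same mRNA and normal rabbit IgG (injection control). The injected embryos were then cultured in KSOM medium to L2C, while oKO and control embryos were isolated from females at the hours given. For these injected libraries the genotype labels run opposite to the titles, and the groups follow the titles. The values are FPKM, mapped fragments scaled by transcript length and by the size of the library, so each value is relative to its library.

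A cytoplasmic ribosome joins a small 40S subunit, which decodes the mRNA, and a large 60S subunit, which forms the peptide bond. The mRNAs of ribosomal proteins are among the most abundant of growing cells, and most of them start with a run of pyrimidines, the 5′ terminal oligopyrimidine (TOP) motif, through which their translation is regulated as a group. The growing mouse oocyte stores such mRNAs, transcription stops in the full-grown oocyte, stored mRNAs are deadenylated and degraded during maturation, and the embryo's own genes are switched on broadly at the late 2-cell stage.

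The sequence around the transcription start is shown for members whose levels are described below: 2 gene and paralog pairs, the gene with the largest rise in control L2C, and 3 genes that were higher in oKO libraries at early stages. Each line gives the 15 bases before and the 15 bases from the RefSeq start on, in GRCm38.p6, with the longest pyrimidine run in capitals.
Rps27, chr3:90213634-90213663, minus strand: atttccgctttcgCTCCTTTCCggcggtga
Rps27l, chr9:66946071-66946100, plus strand: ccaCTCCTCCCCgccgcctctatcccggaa
Rpl39, chrX:37085208-37085237, minus strand: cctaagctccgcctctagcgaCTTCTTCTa
Rpl39l, chr16:10170213-10170242, plus strand: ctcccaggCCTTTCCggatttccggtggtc
Rpl38, chr11:114668565-114668594, plus strand: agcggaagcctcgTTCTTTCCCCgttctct
Rps2, chr17:24720048-24720077, plus strand: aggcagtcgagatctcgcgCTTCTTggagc
Rpl5, chr5:107900513-107900542, plus strand: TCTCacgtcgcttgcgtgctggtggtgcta
Rpl11, chr4:136053379-136053408, minus strand: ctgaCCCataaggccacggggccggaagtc
In Rps27 and Rpl38 the run spans the annotated start, while in Rps27l it lies upstream of it. On the strand that reads like the mRNA, a run of 8 or more C or T was found in 37.5% of the 72 windows listed for 60 members. The share was 12% of 32847 windows listed for all genes. On the opposite strand the shares were 4.17% and 13.2%. Annotated starts may be some bases off, and a run in the window is not shown to be the start of the mRNA.

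Summed FPKM per library lay between 124265 and 432671, and the 2 oKO L2C libraries (124265 and 126713) were lower than the 2 control L2C libraries (209102 and 215926). Tardbp, the gene of TDP-43, was at 0.884 to 4.84 FPKM in the 10 oKO libraries, against 6.14 to 20.3 FPKM in the 10 control libraries, and was lower in oKO at each of the 5 stages without overlap. It was at 3.65 and 3.85 FPKM in Trim-away KD, against 5.29 and 5.95 FPKM in injection control, with no overlap. Trim-away removes protein, so Tardbp mRNA does not check the depletion. All 8 oocyte markers had group means of 1 FPKM or more up to E2C in both genotypes. The 10 cumulus and granulosa markers summed to 0.341 to 21.1 FPKM over all libraries. In FGO, 3 of them had group means of 1 FPKM or more in each genotype. In MII, 1 of them did in each genotype, and the sums lay between 11.5 and 16.7 FPKM. Inhba, Fshr, Amh, Foxl2 and Ptx3 were at 0 in all MII libraries, and Inha was at 0 in both libraries of MII control but not of MII oKO. Cyp19a1, Has2, Tnfaip6 and Cd44 were detected in MII of both genotypes. For FGO, Tnfaip6 was at 0 in both genotypes, Ptx3 in control only and Foxl2 in oKO only. The part of these markers in the results was not tested. The 8 blood and immune markers had their highest sums, 211 and 226 FPKM, in Trim-away KD. Their 1C sums were 2.53 and 6.03 FPKM in oKO, against 23.0 and 199 FPKM in control. Their FGO sums were 3.55 and 40.4 FPKM in oKO, against 0.729 and 1.13 FPKM in control. Their L2C sums were 42.1 and 44.4 FPKM in oKO, against 25.1 and 30.8 FPKM in control. The MII sums (1.60 and 1.75 FPKM) also lay above control (0.438 and 0.624 FPKM), and the E2C sums overlapped. The part of these markers was not tested either. Replicate libraries of a group correlated with r between 0.96 and 0.996 over the 81 members on the log2 scale. Nothing states that the 2 pools of a group came from separate females, and the p-values reflect the spread of the pools alone, which may be technical.

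The share of each library's FPKM in the 81 genes shows the course of the whole group. In oKO libraries it was 5.02% and 5.51% in FGO, 2.05% and 2.08% in MII, 1.63% and 1.58% in 1C, 1.34% and 1.13% in E2C, and 5.96% and 4.81% in L2C. In control libraries it was 5.13% and 4.72% in FGO, 1.47% and 1.54% in MII, 1.38% and 1.52% in 1C, 1.74% and 1.82% in E2C, and 12.4% and 12.5% in L2C. The oKO pair lay above the control pair in MII and 1C and below it in E2C and L2C, and overlapped it in FGO. The share was 5.36% and 6.68% in Trim-away KD L2C, against 9.47% and 8.22% in injection control L2C, with no overlap. With 2 libraries against 2, the exact two-sided permutation test cannot go below p = 0.333, which is its value for MII, 1C, E2C, L2C and Trim-away KD alike. Less RNA of these genes and more RNA of all others cannot be told apart in a share, nor can fewer cells and less RNA per cell in a pool. Because Smart-seq2 primes on the poly(A) tail, tail length and mRNA amount cannot be told apart either.

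**Figure D1:**
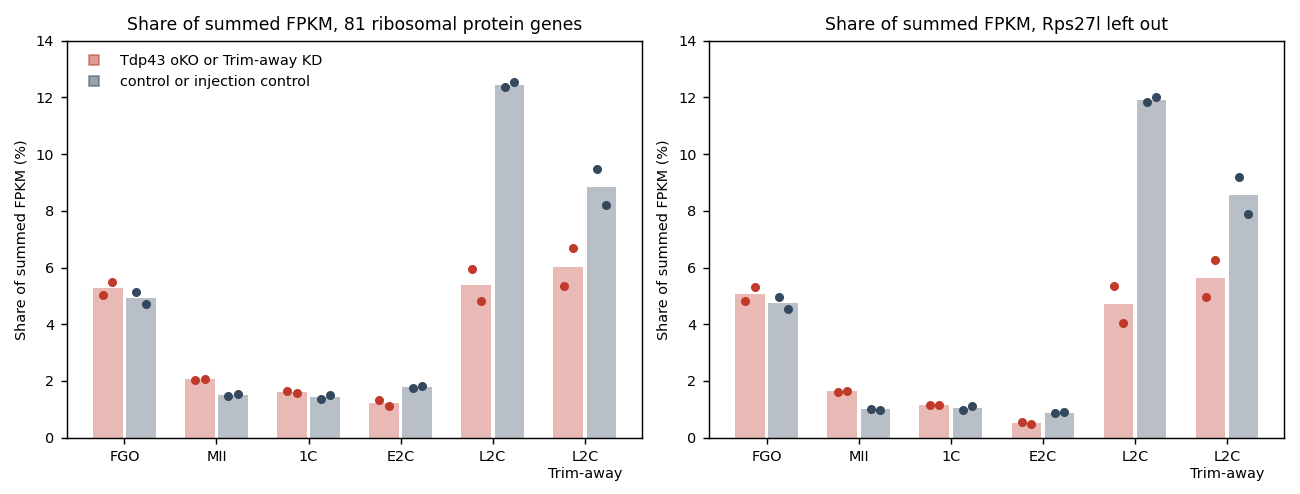
Share of summed FPKM (%) in the ribosomal protein genes by stage and in the Trim-away experiment; red points and bars are oKO or Trim-away KD libraries and their mean, grey points and bars control or injection control libraries and their mean, with Rps27l left out in the right panel. The oKO share is 5.26% on average in FGO, 1.23% in E2C and 5.38% in L2C, against 4.92%, 1.78% and 12.5% in control.

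Within the group, levels ranged widely. Over the 24 libraries, Rpl41 (a very short 60S protein) had the highest mean, 1609 FPKM, followed by Rps27l with 1462 FPKM and Rps29 (40S) with 567 FPKM, and Rpl3l had the lowest, 0.846 FPKM, followed by Rpl10l with 8.06 FPKM and Rpl29 with 9.48 FPKM. Rpl3l is known as a muscle paralog of Rpl3, and Rpl10l and Rpl39l as testis paralogs of Rpl10 and Rpl39. In each MII, 1C and E2C library of both genotypes Rps27l was the highest member, and it alone made up 51.2% and 51.6% of the FPKM of the group in control E2C, against 3.55% and 4.23% in control FGO. The share of the other 80 members was therefore lower in the middle stages, and in E2C it was 0.568% and 0.496% in oKO, against 0.858% and 0.891% in control. Rps27l was also the highest member in both oKO L2C libraries, at 10.8% and 16.4% of the FPKM of the group. Rpl41 was the highest in the control, Trim-away KD and injection control L2C libraries.

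In control MII oocytes, compared with control FGO, nearly the whole group was lower. The labels name no batch, so in the comparisons between stages a batch that followed stage cannot be told apart from stage. Tested genes are those with a mean of at least 1 FPKM in the libraries compared, and calls were made where limma's p-value, adjusted by Benjamini-Hochberg over every gene tested, did not exceed 0.05 and FPKM + 1 changed by 2-fold or more. Of 80 members tested, 70 were called lower, against 27.9% of all 8619 genes, and 1 was called higher, against 7.99% of all genes. After median-ratio scaling the counts were the same, 70 lower, against 26.8% of all genes, and 1 higher, against 8.59%. The median log2 fold change was -3.15 for the members, -0.07 for all genes, and -0.75 for the 25% of genes with the shortest coding sequence. The members have a median coding length of 471 bases, against 1248 bases for all genes. With the trend of each library on coding length removed, 58 of 78 members were called lower, against 19.2% of all genes.

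Rps27 (40S) had 3.03 and 1.46 FPKM in control MII, against 245 and 261 FPKM in control FGO. Its log2 fold change of -6.33 ± 0.23 (SE, adjusted p = 2.5e-14) was the largest fall, and both MII libraries lay far below both FGO libraries. Rps19, a 40S protein whose gene is mutated in Diamond-Blackfan anaemia, had 1.39 and 0.447 FPKM in MII, against 127 and 114 FPKM in FGO, and fell by 6.03 ± 0.20. Rpl19 (60S) fell by 5.33 ± 0.23. The gene called higher was the paralog Rps27l, with 1686 and 2082 FPKM in MII, against 778 and 866 FPKM in FGO (log2 fold change 1.19 ± 0.11, adjusted p = 2.3e-08). Rps27 and Rps27l, whose start windows are printed above, thus moved in opposite directions over the same interval. Rps15a (0.65 ± 0.13), Rps28 (0.27), Rpl22 (-0.24) and the stalk gene Rplp2 (-0.24) did not pass the 2-fold threshold.

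From MII to 1C and from 1C to E2C the control values moved both ways. In 1C against MII, 20 of 80 members were called higher, against 14.4% of all genes, and 12 lower, against 11.1% of all genes. The 25% of genes with the shortest coding sequence had shares close to the members, 23.2% higher and 14.1% lower. With the trend of each library on coding length removed, 17 of 78 members were higher, against 12.7% of all genes. In that setting 17 were lower, against 12.4%. Both 1C libraries lay above both MII libraries for 35 members, against 37.2% of all genes. Rps6, the substrate of the S6 kinases, had 36.6 and 38.2 FPKM in control 1C, against 5.42 and 5.06 FPKM in control MII (log2 fold change 2.62 ± 0.18). Rpl24 (2.56 ± 0.21) and Rps24 (2.55 ± 0.15) were next. Rps2 (40S) had 1.72 and 2.96 FPKM in 1C, against 35.6 and 35.6 FPKM in MII, a log2 fold change of -3.48 ± 0.20, and the stalk genes Rplp1 (-2.58 ± 0.16) and Rplp2 (-1.87 ± 0.14) were also called lower.

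In E2C against 1C, 13 of 79 members were called higher, against 8.29% of all genes, and 21 lower, against 37.3% of all genes. This split depends on the scaling, because the median of all genes was -0.72. After the libraries were scaled by the median ratio of their genes, 30 members were higher, against 17.8% of all genes. On that scale 11 were lower, against 15.6%. As deposited, the 25% of genes with the shortest coding sequence had shares close to the members, 16.2% higher and 27% lower. With the trend of each library on coding length removed, 21 of 77 members were higher, against 14.6% of all genes. In that setting 16 were lower, against 15.7%. Rps19 (2.96 ± 0.27), Rpl23a (2.85 ± 0.20) and Rps27l (1.26 ± 0.16) were called higher on both scales, and Rps7 (-2.72 ± 0.23) and Rpl5 (-1.77 ± 0.19) lower on both.

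In control L2C, compared with control E2C, the group was higher almost as a whole. Of 81 members, 79 were called higher, against 39.7% of all genes, and 1 lower, against 23.0% of all genes. The median log2 fold change was 3.22 for the members, 3.30 for the 40S and 3.15 for the 60S and stalk genes, against 0.53 for all genes. Rpl38, a 60S protein whose loss changes the translation of Hox mRNAs in the mouse, had 681 and 626 FPKM in L2C, against 17.5 and 17.9 FPKM in E2C (5.13 ± 0.35, adjusted p = 3.4e-10). Rpl39, at the exit of the peptide tunnel, had 1153 and 1053 FPKM in L2C, against 37.3 and 36.3 FPKM in E2C (4.87 ± 0.22). Rpl7 (4.94 ± 0.26) and Rps27 (4.92 ± 0.34) rose by a similar factor. Rps27l was again the exception, with 1281 and 1297 FPKM in L2C, against 3129 and 2839.9 FPKM in E2C (-1.21 ± 0.17, adjusted p = 3.2e-06). Over the 5 control stages, 45 members had their highest mean in L2C and 34 in FGO, Rps15a alone in MII and Rps27l alone in E2C.

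**Figure D2:**
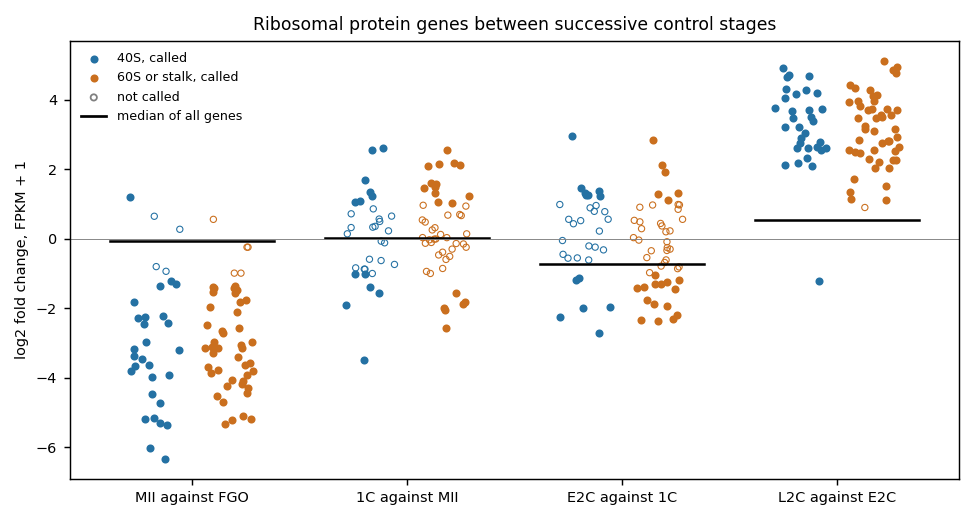
Log2 fold change of FPKM + 1 of each ribosomal protein gene between successive control stages, later over earlier; blue points are 40S genes, orange points 60S or stalk genes, filled where called, and black lines are the median of all genes tested. Members fall from FGO to MII (median -3.15), move both ways up to E2C, and rise in L2C (median 3.22), with Rps27l at 1.19 and -1.21 in the first and last comparison.

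In FGO, few members passed the test between oKO and control oocytes. Of 79 members, 1 was called lower, against 1.32% of all 8919 genes, and 0 higher, against 1.74% of all genes. At an unadjusted p under 0.05 in the same limma fit, 4 members were higher, against 14.9% of all genes, and 2 lower, against 12% of all genes. After median-ratio scaling 1 was lower, against 1.21% of all genes. The median was 0.08, against 0.04 for all genes. Rpl29, a 60S protein, had 11.4 and 14.2 FPKM in oKO, against 48.0 and 35.7 FPKM in control (-1.62 ± 0.33, adjusted p = 0.0026), with no overlap. Rpl29 was no longer called without oKO replicate 1, and Rps23 was called higher (1.11) without control replicate 1.

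In MII, many members were higher in oKO than in control oocytes. Of 79 tested, 21 were called higher, against 4.28% of all 7906 genes, and 0 lower, against 1.35% of all genes. At an unadjusted p under 0.05, 50 were higher, against 16.4% of all genes, and 3 lower, against 17.6%. Both oKO libraries lay above both control libraries for 62 members, against 25.7% of all genes, and below them for 7, against 35.2%. After median-ratio scaling 23 were called higher, against 4.60% of all genes, and 0 lower, against 0.998%. The median log2 fold change was 0.71, with 0.80 for the 40S and 0.71 for the 60S and stalk genes, against -0.07 for all genes and 0.13 for the 25% of genes with the shortest coding sequence, of which 11% were called higher. With the trend of each library on coding length removed, 11 of 77 members were called higher, against 2.75% of all genes.

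Rps27 had 13.9 and 17.9 FPKM in MII oKO, against 3.03 and 1.46 FPKM in MII control (2.42 ± 0.24, adjusted p = 7.7e-07). Rps19 had 5.77 and 7.57 FPKM in oKO, against 1.39 and 0.447 FPKM in control (2.04 ± 0.20). Both genes stayed far below their FGO oKO levels, which were 278 and 299 FPKM for Rps27 and 123 and 143 FPKM for Rps19. Rpsa, which is part of the 40S subunit and also known as a laminin receptor, had 9.92 and 10.3 FPKM in oKO, against 2.21 and 1.53 FPKM in control (1.97 ± 0.19). Rpl7 (1.93 ± 0.18), Rps13 (1.87 ± 0.18) and Rpl18 (1.75 ± 0.25) followed. Rpl41 had 1258 and 1206 FPKM in oKO, against 440.4 and 357 FPKM in control (1.63 ± 0.16). The stalk genes differed among themselves: Rplp1 was called higher (1.38 ± 0.16), while Rplp0 (0.19 ± 0.23) and Rplp2 (-0.05 ± 0.14) were not called. Rps27l had 1681 and 1668 FPKM in oKO, against 1686 and 2082 FPKM in control, and was not called (-0.16 ± 0.12). Among the members called, Rps27a, which is translated as a fusion with ubiquitin, was no longer called without control replicate 1 or oKO replicate 2, Rps29 without control replicate 1, and the paralog Rps4l without control replicate 2 or either oKO replicate.

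The difference between the oKO effects in MII and FGO was tested in the same model. It was called positive for 22 of 80 members, against 3.16% of all genes, and negative for 0, against 0.818% of all genes, with 42 and 3 at an unadjusted p under 0.05, against 10.1% and 9.70% of all genes. Among the larger differences were those of Rps27 (2.23 ± 0.32) and Rps13 (1.91 ± 0.25). The count was 14 without FGO oKO replicate 1 and 14 without MII oKO replicate 2. The MII control libraries enter both the oKO comparison and the change from FGO to MII in control, so the 2 are not independent. Side by side, the median change from FGO to MII was -2.43 in oKO libraries and -3.14 in control libraries, with all genes at -0.12 and -0.06.

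**Figure D3:**
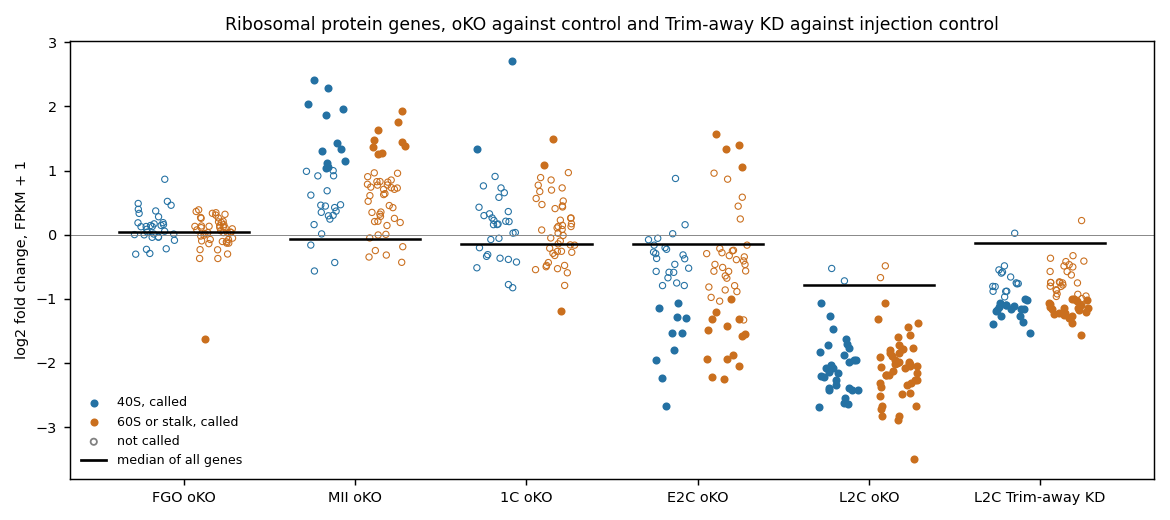
Log2 fold change of FPKM + 1 of each ribosomal protein gene, oKO over control at 5 stages and Trim-away KD over injection control; blue points are 40S genes, orange points 60S or stalk genes, filled where called, and black lines are the median of all genes tested. The members lie at a median of 0.71 in MII, -0.57 in E2C, -2.05 in L2C and -0.97 in Trim-away KD embryos.

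In 1C, few members were called. Of 78 tested, 4 were called higher in oKO, against 1.74% of all genes, and 1 lower, against 2.45% of all genes. At an unadjusted p under 0.05 in the same limma fit, 21 were higher, against 9.90% of all genes, and 13 lower, against 22.4%. Both oKO libraries lay above both control libraries for 31, against 19.2% of all genes, and below them for 19, against 40.7%. Rps2 had 21.1 and 19.95 FPKM in oKO, against 1.72 and 2.96 FPKM in control (2.71 ± 0.20, adjusted p = 2.8e-08), the largest change of the group at this stage. Its level in MII had been 70.6 and 65.7 FPKM in oKO, against 35.6 and 35.6 FPKM in control, so control 1C embryos lay at the low point of its course. Rpl5, which with Rpl11 and the 5S ribosomal RNA forms the particle that can bind Mdm2, had 134 and 131 FPKM in oKO, against 52.7 and 40.5 FPKM in control (1.5 ± 0.15). Rpl9 (1.08 ± 0.20) was also called higher. Rpl24, which forms a bridge between the subunits, had 23.2 and 20.03 FPKM in oKO, against 43.7 and 57.8 FPKM in control (-1.18 ± 0.21). After median-ratio scaling 6 were higher, against 2.05% of all genes, and 1 lower, against 1.42%. The counts rest on single libraries: 9 members were higher without control replicate 2, Rpl9 was not called without control replicate 1 or oKO replicate 1, Rpl24 was not called without control replicate 2 or oKO replicate 2, and 2 were lower without control replicate 1.

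In E2C, the group leaned to lower values in oKO, with exceptions. Of 80 members, 24 were called lower, against 7.89% of all 6657 genes, and 4 higher, against 3.59% of all genes. Both oKO libraries lay below both controls for 54 members, against 35.3% of all genes. The median was -0.57, against -0.15 for all genes. After median-ratio scaling 20 were lower, against 6.89% of all genes, and 7 higher, against 4.49%. The 6 markers of the 2-cell embryo summed to 218 and 678 FPKM in oKO, against 1051 and 1196 FPKM in control, with no overlap, and the part of this difference was not tested. Without E2C control replicate 1 or replicate 2, 13 or 14 were called lower, and without control replicate 2, 1 was called higher.

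Rps27 had 1.49 and 2.85 FPKM in E2C oKO, against 21.6 and 16.3 FPKM in E2C control (-2.68 ± 0.38, adjusted p = 7.9e-05), the opposite of its difference in MII. Rps26 had 16.7 and 18.9 FPKM in oKO, against 94.3 and 80.7 FPKM in control (-2.23 ± 0.25). Rpl23a had 12.5 and 12.6 FPKM in oKO, against 73.0 and 52.8 FPKM in control (-2.22 ± 0.24). Rpl9 (-2.25 ± 0.31), Rpl24 (-2.05 ± 0.33), Rpl28 (-1.94 ± 0.27) and Rps19 (-1.79 ± 0.33) were also called lower under each library left out. Rpl5 had 44.1 and 36.4 FPKM in oKO, against 13.98 and 11.8 FPKM in control (1.57 ± 0.23), and stayed called under every library left out. Its partner in the 5S particle, Rpl11, had 164 and 134 FPKM in oKO, against 70.8 and 43.1 FPKM in control (1.4 ± 0.27), and was not called without control replicate 2. Rpl34 (1.33 ± 0.34) and Rpl32 (1.06 ± 0.25) were not called without that replicate either, nor Rpl34 without control replicate 1. For each of these genes the oKO libraries did not overlap the controls.

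**Figure D4:**
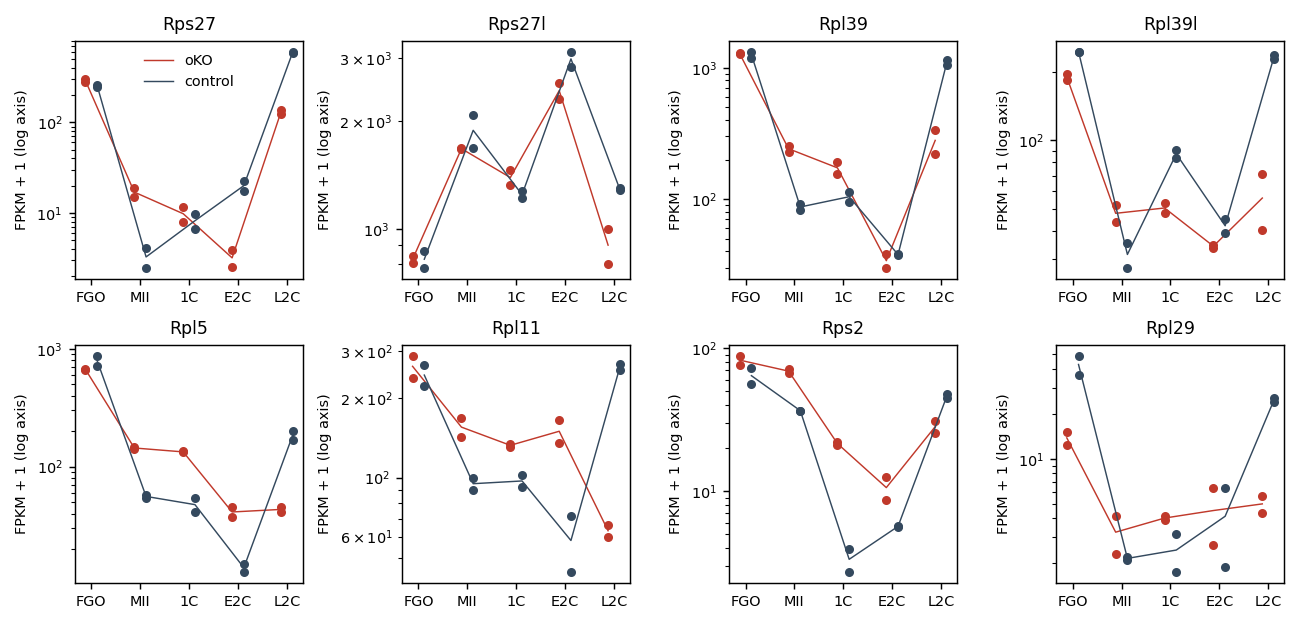
FPKM + 1 (log axis) of 8 ribosomal protein genes over the 5 stages; red points are oKO libraries, grey points control libraries, and lines join the means. Rps27 in oKO is above control in MII and below it in E2C and L2C, Rpl5 is above control from MII to E2C and below it in L2C, and Rps27l peaks in E2C in both genotypes.

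In L2C, every member was lower in oKO than in control embryos. Of 81 members, 77 were called lower, against 40.7% of all 7760 genes, and 0 higher, against 6.80% of all genes. All 81 were lower at an unadjusted p under 0.05, against 61.8% of all genes, and lay below control without overlap, against 69.2% of all genes. The whole of these libraries was shifted, with a median log2 fold change of -0.79 over all genes, so the changes of named members are given as deposited and after median-ratio scaling. The median of the members was -2.05 as deposited. After median-ratio scaling it was -1.17, against -0.11 for all genes, and 54 members were called lower, against 14.5% of all genes, and 0 higher, against 17.4%. The scaled median was -1.21 for the 40S genes and -1.14 for the 60S and stalk genes. The 6 markers of the 2-cell embryo summed to 189 and 209 FPKM in oKO, against 27.3 and 27.4 FPKM in control, with Tcstv1 and Tcstv3 at 0 in each, and the 8 oocyte markers to between 1842 and 2093 FPKM in oKO, against 478 to 641 FPKM in control. The part of these differences in stage markers was not tested.

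Rpl30, a 60S protein, had 59.6 and 42.7 FPKM in L2C oKO, against 569 and 590.0 FPKM in L2C control (-3.50 ± 0.23, adjusted p = 2.5e-09, and -2.59 after scaling). Rpl14 had 31.3 and 16.3 FPKM in oKO, against 175 and 175 FPKM in control (-2.90 ± 0.26, and -2.01 after scaling). Rpl27, Rpl35a, Rpl9, Rps14 and Rpl31 had log2 fold changes between -2.83 and -2.67, and between -1.94 and -1.78 after scaling. Rpl38, the member with the largest rise in control L2C, had 122 and 85.2 FPKM in oKO, against 681 and 626 FPKM in control (-2.67 ± 0.31, and -1.76 after scaling). Rpl41 had 768 and 587 FPKM in oKO, against 3505 and 3948 FPKM in control (-2.47 ± 0.20, and -1.55 after scaling). Rpl5, higher in oKO at 3 earlier stages, had 44.3 and 40.4 FPKM in oKO, against 167 and 201 FPKM in control (-2.09 ± 0.18, and -1.18 after scaling). The members not called were Rpl3l (-0.49), Rps27l (-0.53), Rplp0 (-0.67) and Rps2 (-0.72). Of these, Rps27l had 798 and 1001 FPKM in oKO, against 1281 and 1297 FPKM in control, and after scaling its difference was 0.39 (adjusted p = 0.11), the other direction. Rplp0 was at 0.24, Rps2 at 0.18 and Rpl3l at 0.06 after scaling, none of them called. The other stalk genes Rplp1 (-0.88) and Rplp2 (-0.52) were not called after scaling. The testis paralog Rpl39l (-1.22) was called after scaling, as was Rpl39, and Rpl10l (-0.74) was not.

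In oKO embryos the rise from E2C to L2C had a median of 1.89 log2 units, against 3.22 in control embryos, with all genes at -0.12 and 0.27. Of 81 members, 74 had their highest oKO mean in FGO and 3 in L2C (Rpl3l, Rpl9 and Rpl10l), against 34 and 45 in control. The difference between the oKO effects in L2C and E2C was called negative for 49 of 80 members, against 29.3% of all genes, and after median-ratio scaling for 17, against 10.9%. On the first scale 0 were positive, against 8.44% of all genes, with 0 at an unadjusted p under 0.05, against 11.7% of all genes, and after scaling 3 were, against 16.4% of all genes. Rpl27 (-3.70 ± 0.36), Rpl34 (-3.67 ± 0.44), Rpl5 (-3.66 ± 0.29) and Rpl11 (-3.45 ± 0.34) had the most negative differences and were called on both scales. Rplp0 was among the 3 that were positive after scaling (1.67).

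In the Trim-away experiment the group was lower as well. Of 81 members, 39 were called lower in KD L2C, against 8.47% of all 8100 genes, and 0 higher, against 7.86% of all genes, with 70 lower and 0 higher at an unadjusted p under 0.05, against 25.9% and 17.5% of all genes. The median was -0.97, against -0.13 for all genes, and 75 members had both KD libraries below both injection controls, against 40.3% of all genes, and none had both above, against 27.2%. After median-ratio scaling 26 were lower, against 6.24% of all genes, and 0 higher, against 9.50%. The count rests on the libraries used: 9 members were called lower without KD replicate 1 and 21 without injection control replicate 1. The 8 blood and immune markers summed to 211 and 226 FPKM in the KD libraries, against 98.7 and 122 FPKM in the injection controls. Of them, 3 had a mean of 1 FPKM or more in KD and 4 in injection controls. Hbb-b1, S100a8 and S100a9 were at 0 in all these libraries, and Ptprc in both KD libraries only. The 2-cell markers summed to between 357 and 400.4 FPKM in KD, against 76.3 to 107 FPKM in injection controls. The part of these signals was not tested.

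Rpl35a had 46.0 and 60.05 FPKM in KD embryos, against 179.9 and 139 FPKM in injection controls (-1.57 ± 0.23, adjusted p = 1.1e-04). Rps21 had 89.7 and 118 FPKM in KD, against 313 and 286 FPKM in injection controls (-1.53 ± 0.22). Rpl21 (-1.38 ± 0.23) was, like Rpl35a and Rps21, called under each library left out. Rps6 (-1.39 ± 0.26), Rps14 (-1.27 ± 0.24) and Rps19 (-1.27 ± 0.29) were not called without KD replicate 1. Rpl5 had 37.9 and 47.9 FPKM in KD, against 103 and 88.4 FPKM in injection controls (-1.14 ± 0.21), and was not called without KD replicate 1. Rps27l had 999 and 1123 FPKM in KD, against 992 and 1096 FPKM in injection controls (0.02 ± 0.17), and Rpl29 was at 0.22 ± 0.52.

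The oKO and Trim-away L2C comparisons share no library. Of 81 members, 79 had a negative change in both, which is the Trim-away count, since all 81 were negative in oKO. For 39 the call was lower in both, which is 100% of the Trim-away calls and 50.6% of the oKO calls. With 77 of 81 members called lower in oKO, an overlap near 100% was fixed in advance. Over all 7057 genes tested in both, 2975 were called lower in oKO. There 87.6% of the Trim-away calls and 19.4% of the oKO calls were shared, so the base rates are unlike. After median-ratio scaling 23 members were lower in both, 88.5% of the 26 Trim-away calls and 42.6% of the 54 oKO calls. Over all 7845 genes tested in both on that scale, 1238 were lower in oKO, and the shares were 57.6% and 24.1%. No test set the overlap against these base rates. Over the 81 genes, which are not independent replicates, the log2 fold changes correlated with a Pearson r of 0.40 and a Spearman rho of 0.42 (0.37 and 0.39 after scaling), given as a description. The oKO effect was more negative than the Trim-away effect for 49 members, against 25.5% of all genes, but for 1, Rpl30 (-1.68), after median-ratio scaling, against 5.67% of all genes. No member was called the other way, against 3.26% of all genes, with 0 at an unadjusted p under 0.05, against 5.61% of all genes. The count on the first scale was 29 without L2C control replicate 2, 19 without KD replicate 2 and 30 without injection control replicate 2.

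**Figure D5:**
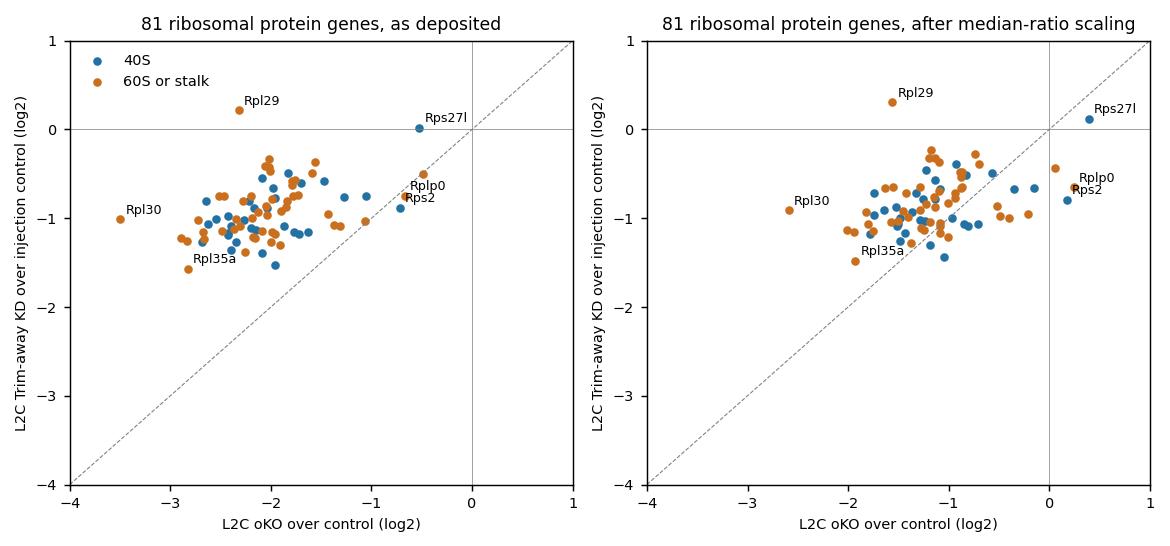
Log2 fold change of the 81 ribosomal protein genes in L2C oKO over control (horizontal) and in Trim-away KD over injection control (vertical), as deposited on the left and after median-ratio scaling on the right; the dashed line marks equal changes. Nearly all points lie below 0 on both axes as deposited, Rps27l lies near 0 in Trim-away KD, and Rpl30 is the farthest to the left.

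Across the 6 comparisons with TDP-43 removed, Rpl5 was called higher in 3 (MII, 1C, E2C) and lower in 2 (L2C oKO and Trim-away KD). Rpl24 was called lower in 4 and higher in none. Rps27l and Rpl3l were called in none, although Rpl3l was tested in L2C alone. Rps2 was called only in 1C, without a test of the difference from the other stages.

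Genes related to the ribosome outside the symbol rule were read from lists written from general knowledge. Of 10 ribosomal protein genes with other names, 8 were tested: 2 were higher in MII oKO, 1 was lower in 1C oKO, 3 lower in E2C oKO, 8 lower in L2C oKO and 5 lower in Trim-away KD, and none was called in FGO oKO. After median-ratio scaling the counts were 2 higher in MII, 0 lower in 1C, 3 lower in E2C, 6 lower in L2C and 3 lower in Trim-away KD. The shares of all genes given above for each comparison are the background of these counts, among them 40.7% called lower in L2C oKO as deposited and 14.5% after scaling. Rps27rt, a near-identical retrocopy of Rps27, averaged 23.6 FPKM in MII oKO and 3.06 FPKM in control (2.63 ± 0.24). Many members have near-identical copies elsewhere in the genome, and how reads with several matches were counted is not given in the sources used here, so how the signal divides between Rps27 and Rps27rt is uncertain.
Of 22 other genes with TOP mRNAs, such as translation factors, none of 18 tested was called in MII oKO (median 0.07), where Npm1, a nucleolar chaperone, averaged 1454 FPKM in oKO and 1325 FPKM in control (0.14). None of 20 was called in FGO oKO, where 1.74% of all genes were higher and 1.32% lower. The shares of all genes in MII oKO were 4.28% and 1.35%. In 1C oKO 1 of 21 was lower (Eef1a1, -1.01), against 2.45% of all genes, and in E2C oKO 3 of 19, against 7.89%. In L2C oKO 18 of 20 were called lower (median -1.79, against -0.79 and 40.7% lower for all genes), and 10 after scaling (median -0.99, against -0.11 and 14.5% for all genes). The most negative as deposited were Gnb2l1, a protein of the 40S subunit also on the first list (-3.22), and the translation factors Eef1d (-2.82) and Eif3e (-2.63). In Trim-away KD 3 of 21 were lower, against 8.47% of all genes, and 1 higher, against 7.86% (median -0.77).
Of 22 regulators of TOP mRNAs and chaperones of ribosomal proteins, none of 12 tested was called in FGO oKO and none of 11 in 1C oKO. Of all genes, 1.74% were higher and 1.32% lower in FGO oKO, and 1.74% higher and 2.45% lower in 1C oKO. In MII oKO 1 of 11 tested was higher (Eif4ebp1, 1.10 ± 0.30), against 4.28% of all genes. In E2C oKO 1 of 9 was lower (Larp1b, -1.72), against 7.89% of all genes. In L2C oKO 13 of 16 were lower (median -1.67, led by Tsr2, the chaperone of Rps26, at -2.47), against 40.7% of all genes. In Trim-away KD 3 of 14 were lower (median -0.83), against 8.47% of all genes. After scaling Eif4ebp1 was not called in MII, 2 were lower in E2C, and 6 of 16 were lower in L2C (median -0.91), against 14.5% of all genes.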

How the data were processed

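The authors trimmed reads with Trim Galore 0.6.6, aligned them to mm9 with HISAT2 2.2.1 and deposited FPKM per gene from StringTie 2.1.2, tools and versions being those of the submitters' processing notes. Of 24085 rows, 2 without values and 27 with names turned into dates were left out. FPKM carries no read counts, so the depth is unknown and no counting interval is given. The 16 Stacc-seq samples were not analysed here.

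Values were tested as log2(FPKM + 1) with limma 3.58.1 (R 4.3.3) in 1 model over 24 libraries and 12 groups, with 12 residual degrees of freedom. Array weights were set per stage, with the Trim-away experiment apart. Genes with a mean of 1 FPKM or more in the libraries compared were tested, p-values were adjusted (Benjamini-Hochberg) over all of them, and calls had to reach 0.05 after adjustment and change 2-fold. A fold change on this scale understates the change of low genes. Python 3.11.15, pandas 2.3.3, scipy 1.17.1 and matplotlib 3.10.9 were used for shares and plots, and the fit was tested on simulated data.

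The text names, from each TDP-43 comparison, as many as 8 calls per direction by size (4 in the others), fixed role groups, the 3 highest and 3 lowest members, and up to 3 genes per related list. Some others were named after their values were seen, and some that the rule names are not reported here. Alternatives were median-ratio scaling over 3573 genes, other pseudocounts and filters, no weights, removal of a coding-length trend, a replicate block, and leaving out each library. The members and lists were chosen with earlier results of these data known.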

Additional observations from a re-analysis of the deposited data

Results flagged for a closer look

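The members below are among those for which the oKO effect differed between 2 stages, or between oKO and Trim-away embryos, in a test of the difference itself (limma, at the same thresholds as the calls). No explanation was tested for any of them.

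Between MII and FGO the effect was more positive in MII for the 40S genes Rps27 (2.23), Rps13 (1.91), Rps19 (1.89), Rpsa (1.48), the ubiquitin fusion Rps27a (1.27) and Rps4x (1.02), in log2 units. It was also more positive for the 60S and stalk genes Rpl29 (2.14), Rpl5 (1.60), Rpl41 (1.37), Rpl38 (1.19) and Rplp1 (1.11). Rpl29, Rplp1, Rps4x and Rpl38 were not called when single libraries were left out, FGO oKO replicate 1 among them in each case. Rpl29 is also the one member called lower in FGO oKO.

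Between L2C and E2C the effect was more negative in L2C for Rpl27 (-3.70), Rpl34 (-3.67), Rpl5 (-3.66), Rpl11 (-3.45), Rps4x (-2.58), Rpl29 (-2.56), Rpl10 (-2.38) and Rpl38 (-2.10). Smaller differences were found for Rpl39l (-1.83), Rps29 (-1.69), Rpsa (-1.61), Rps6 (-1.51) and Rps27a (-1.13). These values include the shift of all genes, whose median difference was -0.50. After median-ratio scaling 6 of the 13 stayed called, and Rpl29, Rpl38, Rpl39l, Rps29, Rpsa, Rps6 and Rps27a were not.

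Between oKO and Trim-away L2C embryos the oKO effect was more negative for Rpl29 (-2.54), Rpl30 (-2.49), Rps4x (-1.83), Rpl13 (-1.76), Rpl41 (-1.72), Rpl22 (-1.69), Rps27a (-1.46) and Rpl38 (-1.43). The others were Rpl24 (-1.35), Rpsa (-1.32), Rpl10 (-1.22), Rpl39l (-1.20), Rpl11 (-1.19), Rplp1 (-1.16) and Rps19 (-1.08). The median over all genes was -0.62 here, and after median-ratio scaling Rpl30 alone was called.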

How the results depend on the processing

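After median-ratio scaling the members called higher were 7 in E2C oKO, 30 (11 lower) in control E2C against 1C, and 3 (17 lower) for the oKO effect in L2C minus E2C, and 1 was lower for the oKO minus the Trim-away effect. With the coding-length trend removed, 11 were higher in MII oKO, against 2.75% of all genes, and 0 lower in 1C oKO, against 1.47%. In E2C oKO 7 of 78 were higher, against 5.5%. In control E2C against 1C 21 of 77 were higher, against 14.6%. For MII minus FGO 12 of 78 were higher, against 2.36%, and for L2C minus E2C 32 of 78 were lower, against 16.2%. Other counts lay below the share of all genes. These were 4 higher in control MII against FGO (5.13% of members, against 20%), 2 higher for L2C minus E2C (2.56%, against 14.8%) and 4 lower for oKO minus Trim-away (5.06%, against 5.95%). A pseudocount of 5 gave 2 higher in 1C oKO, 13 in control 1C against MII and 12 for MII minus FGO, and one of 0.1 gave 2 higher in control MII against FGO. Without weights 0 were lower in FGO oKO and 13 higher for MII minus FGO. The cause was not tested.

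Leaving out each library in turn gave 0 to 1 members higher and 0 to 1 lower in FGO oKO, 3 to 9 higher and 0 to 2 lower in 1C oKO, 1 to 5 higher and 13 to 24 lower in E2C oKO, 9 to 48 lower in Trim-away KD, 14 to 23 higher for MII minus FGO, 0 to 1 higher for L2C minus E2C (1 without E2C oKO replicate 2), and 19 to 53 lower for oKO minus Trim-away. The log2 ratio of the share lay between -0.66 and -0.41 in E2C oKO and between -1.37 and -1.06 in L2C oKO.

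With the 100 highest other genes left out of the sum, the log2 ratio of the share was 0.51 in MII oKO, 0.26 in 1C oKO, -0.37 in E2C oKO, -0.96 in L2C oKO, -1.49 in control MII against FGO, -0.21 in 1C against MII, 0.65 in E2C against 1C and 2.09 in L2C against E2C. With Rps27l left out, an alternative chosen after seeing the data, it was 0.71 in MII oKO, -0.72 in E2C oKO, -2.24 in control MII against FGO and 3.77 in L2C against E2C, and it changed sign in 1C against MII (0.055, against -0.06) and in E2C against 1C (-0.25, against 0.30).

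Deviations of same-numbered libraries correlated at -0.22 in FGO, -0.02 in MII, 0.21 in 1C, 0.09 in E2C, -0.01 in L2C and -0.14 in Trim-away. With 2 libraries a group, these values cannot decide whether libraries of the same number share a batch. A replicate block gave 22 members lower in E2C oKO, 20 higher for MII minus FGO and 48 lower for oKO minus Trim-away, and no other count changed. Crossed pairing, added after seeing the data, gave 1 lower in FGO oKO and 39 lower in Trim-away KD. An alternative without mitochondrially encoded genes could not be run.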
